A study of Mus musculus with 24 samples.

Results

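The zinc finger protein (Zfp) genes of the mouse liver carried 1550 of 52025 listed m6A sites in the 8-week comparison, 1535 of 52315 in the 28-week comparison and 1524 of 51883 in the comparison of ages in wild type. m6A, N6-methyladenosine, is a methyl mark on messenger RNA, and a site here is an entry of the authors' m6A tables, with its reads in the input and after pull-down with an antibody against the mark. Not every listed site had more IP than input reads. Members were all sites whose gene name was Zfp followed by digits, without Zfp36 and its paralogs, whose fingers are of another type. They fell in 329, 328 and 328 gene labels, and the same names gave 395 of 25239 genes in each RNA table. The 4 groups held 3 C57BL/6 mice each, ApoF gene knockout (KO) at 28 weeks, wild type (WT) at 28 weeks, KO at 8 weeks and WT at 8 weeks of age. Each of the 12 livers gave an input library of total messenger RNA and an IP library of the pulled-down RNA. ApoF, an apolipoprotein, is made mainly by hepatocytes, and the design asked how its loss alters the m6A pattern of liver RNA.

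Zinc finger proteins of the C2H2 type bind DNA through short finger repeats, each held together by a zinc ion, and form the most numerous class of transcription factors in mammals. Many also carry a KRAB domain, which recruits the corepressor Trim28 and the histone methyltransferase Setdb1 to silence retroelements and nearby genes. In mouse liver, KRAB zinc finger proteins of the Rsl group are known as repressors of sex-dependent genes. Their finger arrays are often encoded in a long last exon, and m6A is generally found in long exons and near stop codons. Many Zfp genes arose by duplication and lie side by side in clusters, so that reads can be shared between near-identical copies.

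The promoters of Zfp970, Zfp971 and Zfp972 are shown because sites in these 3 genes were called as higher in at least 1 comparison below and because the genes belong to a cluster of copies on chromosome 2. Each stretch of 300 bases runs from 250 bases before the gene's start to 50 after it, from RefSeq on build GRCm38.p6, at chr2:177464492-177464791 on the plus strand, chr2:178023034-178023333 on the plus strand and chr2:177925601-177925900 on the minus strand. Capitals mark the longest run of bases found in all 3, 30 bases long, which starts at -114, -123 and -132 from the gene's start.
Zfp970: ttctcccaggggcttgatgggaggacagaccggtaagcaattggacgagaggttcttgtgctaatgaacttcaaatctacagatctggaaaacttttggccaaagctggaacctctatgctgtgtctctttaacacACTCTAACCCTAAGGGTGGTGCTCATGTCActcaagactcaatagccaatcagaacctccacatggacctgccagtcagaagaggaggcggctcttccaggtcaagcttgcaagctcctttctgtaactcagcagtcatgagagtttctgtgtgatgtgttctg
Zfp971: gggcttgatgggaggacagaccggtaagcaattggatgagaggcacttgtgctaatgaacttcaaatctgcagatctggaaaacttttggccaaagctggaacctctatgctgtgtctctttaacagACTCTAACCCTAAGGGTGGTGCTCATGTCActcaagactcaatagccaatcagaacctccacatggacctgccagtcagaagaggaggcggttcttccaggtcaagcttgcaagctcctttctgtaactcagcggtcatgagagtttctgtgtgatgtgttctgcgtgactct
Zfp972: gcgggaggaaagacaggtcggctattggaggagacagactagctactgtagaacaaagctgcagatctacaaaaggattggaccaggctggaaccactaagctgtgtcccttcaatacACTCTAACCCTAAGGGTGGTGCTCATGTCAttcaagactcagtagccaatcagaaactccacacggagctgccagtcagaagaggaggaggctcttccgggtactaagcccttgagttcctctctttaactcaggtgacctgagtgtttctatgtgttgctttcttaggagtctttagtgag
The same 30 bases, searched on both strands, occurred in 33 of 32851 RefSeq promoters of this length (0.100%), all on chromosome 2, and 9 of them belonged to Zfp names. The promoters of Zfp966 and Zfp967 were identical at 300 of 300 positions, those of Zfp968 and Zfp973 at 299, and those of Zfp965 and Zfp971 at 291. Letters shared in these windows describe the copies and do not mark a binding site.

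Reads at all listed sites ran from 72868528 to 90420947 over the IP or the input libraries of a group, of which Zfp sites held 0.388% to 0.441% of IP reads and 0.295% to 0.344% of input reads. The depth of each library is not given, because the site tables hold sums over the 3 animals of a group. Apof itself had 11839 normalized counts in KO and 23860.3 in WT at 28 weeks (adjusted p = 2.53e-06), and 14414 in KO and 23454 in WT at 8 weeks (adjusted p = 2.31e-08), per the authors' deposited table. The hepatocyte markers held 10.1% to 14.1% of normalized counts in every group. The 4 Y-linked genes examined had 300 to 2338 normalized counts in 8-week KO against 0.178 to 2.96 in 8-week WT, while Xist had 10192 and 21017. At 28 weeks, Y-linked RNA was present in both genotypes, from 224 to 2189 normalized counts in KO and from 229 to 2232 in WT. The 8-week comparison, the ages of WT and each change of the KO difference with age use 8-week WT. In these, genotype or age and this difference in Y-linked RNA cannot be told apart. Between the ages in KO, Y-linked RNA ran from 237 to 2314 normalized counts at 28 weeks and from 287 to 2235 at 8 weeks. Xist had 8903 normalized counts in KO and 8747 in WT at 28 weeks. Both 28-week groups and 8-week KO thus held Y-linked RNA and Xist together. How these were spread over the animals of a group cannot be seen, and their part in the 28-week comparison and in the ages of KO was not tested. Erythroid markers summed to 6728 normalized counts in 8-week KO and 1331 in 8-week WT, and their part in the results below was not tested.

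Zfp sites were shallow, and most of them entered no test. The median Zfp site had 54 input reads in KO and 51 in WT at 28 weeks, and 55 in KO and 58 in WT at 8 weeks, against 156 to 169 for all other sites. An adjusted p was deposited for 396 Zfp sites at 8 weeks, 228 at 28 weeks and 284 in the ages of WT, that is 25.5%, 14.9% and 18.6% of them, against 49.5%, 35.8% and 39.8% of all sites. Sites with an adjusted p had a median of 1287, 2022 and 1712 reads in all, those without one 188, 210 and 207. Genes that carried sites had higher RNA counts as a group. Of 395 Zfp genes, 328 had a site at 8 weeks and a median of 227 normalized counts, while the 67 without a site had a median of 4.93. The most abundant genes without a listed site were Zfp967 with 273 normalized counts and its copy Zfp966 with 188.

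The Zfp genes with most normalized counts in the 8-week table were Zfp106, an RNA-binding protein of nerve and muscle, with 6401 in KO and 6842 in WT, and Zfp91, a ubiquitin ligase, with 5343 in KO and 6017 in WT. Zfp970 followed with 4190 in KO and 3504 in WT, Zfp598, which senses collided ribosomes, with 2822 in KO and 2999 in WT, and Zfp609, with 2596 in KO and 2656 in WT. None of these 5 genes passed the RNA test at 8 weeks per the authors' deposited table, where the smallest adjusted p was that of Zfp91, at 0.700. A Zfp gene with sites had a median of 4, against 3 for other genes. At 8 weeks, the most sites were listed in Zfp407 with 19, Zfp292 and Zfp507 with 17 each, and Zfp704 and Zfp950 with 16 each.

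IP reads exceeded input reads at most Zfp sites, and by more than at other sites of the liver transcriptome. Among sites with at least 10 input reads, the median log2 of IP over input at Zfp sites was 0.55 in KO and 0.68 in WT at 28 weeks, and 0.58 in KO and 0.36 in WT at 8 weeks. All other sites had medians of 0.24 in KO and 0.32 in WT at 28 weeks, and 0.24 in KO and 0.05 in WT at 8 weeks. The Zfp median thus stood above that of other sites by 0.31 and 0.36 at 28 weeks and by 0.34 and 0.31 at 8 weeks, in KO and WT in each case. Between 74.4% and 76.3% of Zfp sites lay above the median of the other sites in their group. A more than 2-fold excess of IP was found at 16.2% of Zfp sites in KO and 24.9% in WT at 28 weeks, and at 18.5% in KO and 10.5% in WT at 8 weeks, against 3.35% to 10.1% of other sites. These ratios are not scaled by total reads, and total IP over total input ran from 0.985 in 8-week WT to 1.17 in 28-week WT. Scaled, the 8-week Zfp medians were 0.46 in KO and 0.38 in WT. Differences between groups in the unscaled ratio are therefore not read as differences in m6A.

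**Figure D1:**
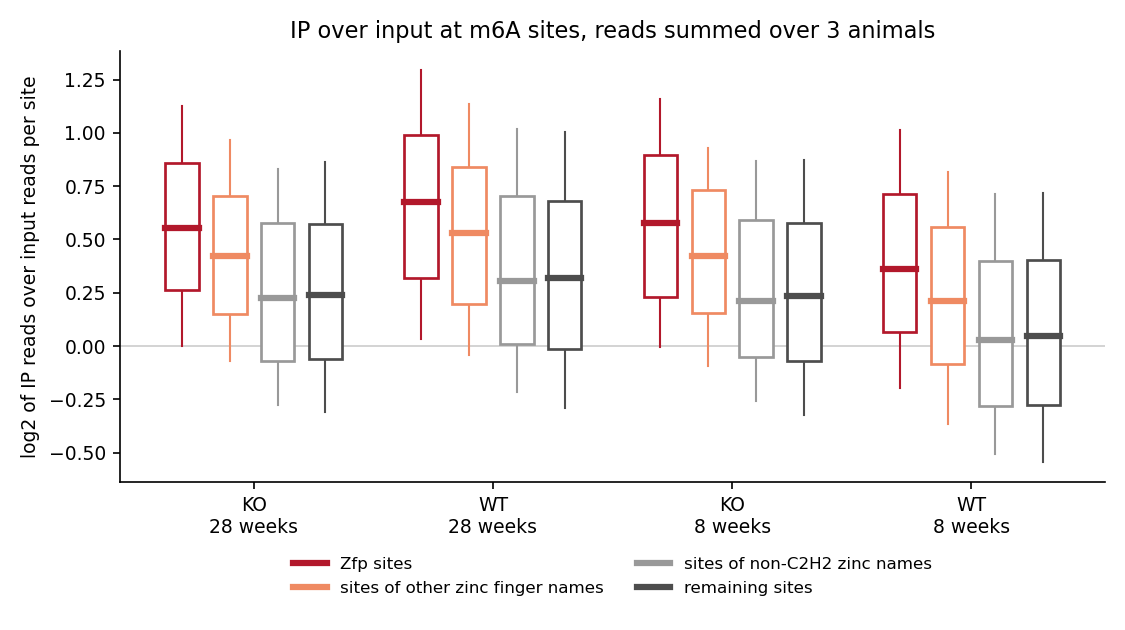
The log2 of IP reads over input reads per site in KO and WT at 28 and 8 weeks, with boxes from the 25th to the 75th percentile, thick lines at the median and whiskers from the 10th to the 90th percentile, over sites with at least 10 input reads summed over 3 animals. Zfp sites have the highest median in each group, from 0.36 to 0.68, and sites of other zinc finger names come next.

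Names of other zinc finger families (Zbtb, Zkscan, Zscan, Klf and the like) had medians between those of Zfp sites and of the rest, 0.42 in KO and 0.53 in WT at 28 weeks and 0.42 in KO and 0.21 in WT at 8 weeks. Names of zinc-binding proteins without C2H2 fingers (such as Zc3h, Zdhhc and Rnf) lay at 0.23 in KO and 0.30 in WT at 28 weeks and at 0.21 in KO and 0.03 in WT at 8 weeks, within 0.03 of all other sites. The order was the same in all 4 groups, which are sums over animals and give no error for it, so it was not tested.

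Depth moved with this ratio, since the median of other sites was highest at the shallowest ones, from 0.67 to 0.97 at 20 to under 60 reads, and Zfp sites were shallow. The excess was therefore taken within 5 ranges of total reads, a choice made after the data were seen. It was present in each range and group, from 0.12 to 0.19 at sites with 20 to under 60 reads and from 0.43 to 0.50 at sites with 2000 to under 20000 reads, where there were 49 to 55 Zfp sites per group. At 200 to under 600 reads, the median at Zfp sites was 0.46 in KO and 0.54 in WT at 28 weeks, and 0.44 in KO and 0.22 in WT at 8 weeks, while other sites had 0.12 and 0.18 at 28 weeks and 0.11 and -0.08 at 8 weeks, in KO and WT.

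**Figure D2:**
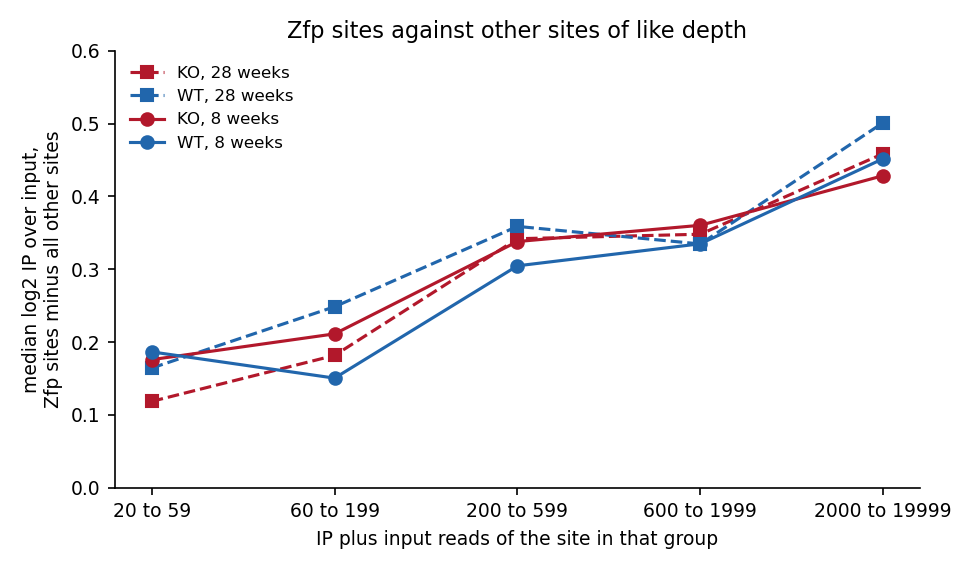
The difference between the median log2 IP over input of Zfp sites and of all other sites, within 5 ranges of IP plus input reads per site, for KO and WT at 28 and 8 weeks. All 20 differences lie above 0, from 0.12 to 0.50.

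Sites within a gene differed from each other. Among 128 Zfp genes with at least 3 sites of 50 or more input reads in 28-week WT, the median range of log2 IP over input within a gene was 0.77. Zfp654 had the widest range, from -0.43 to 1.64 over 4 sites, followed by Zfp292 from 0.18 to 1.86 over 8 sites. The highest values among 783 such sites were found in Zfp758, with 208 IP and 83 input reads in KO against 207 and 51 in WT, and in Zfp292, with 255 and 91 in KO against 295 and 81 in WT. Sites in Zfp960, Zfp654 and Zfp518a came next, at 1.17, 1.18 and 1.14 in KO and 1.67, 1.64 and 1.63 in WT. The lowest values in WT were those of a site assigned to both Zfp991 and Zfp992, at 0.82 in KO and -0.91 in WT, and of sites in Zfp598, Zfp787, Zfp771 and Zfp467, from -0.65 to 0.30 in KO and from -0.85 to -0.66 in WT.

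Genes that have another Zfp gene within 3 places on the chromosome, 250 of 393 placed in RefSeq, had higher values than lone ones. Their sites had a median of 0.60 in KO and 0.71 in WT at 28 weeks, and 0.64 in KO and 0.42 in WT at 8 weeks, against 0.46 and 0.60 at 28 weeks and 0.48 and 0.26 at 8 weeks for sites of lone genes, in KO and WT. Input reads moved with this split, with medians of 51 to 55 per site in neighboured and 77.5 to 90 in lone genes, and their part in it was not tested.

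Between KO and WT at 8 weeks, most tested Zfp sites were not called, and a few were called in each direction. The authors' deposited table called 14 of 396 tested Zfp sites higher and 12 lower in KO, in 22 genes, at an adjusted p under 0.05. That is 3.54% and 3.03% of the tested members, against 5.52% higher and 5.43% lower of all 25727 sites tested, a share below the background. The median log2 difference was 0.02 for both the Zfp sites and all sites per the authors' deposited table. These p-values followed the counting error of the summed reads, with a ratio of implied to counting SE of 1.00 at the median site, so that the spread between animals is not in them.

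All 3 sites listed in Zfp970 at 8 weeks rose in KO. The deepest had 8900 IP and 4311 input reads in KO against 6337 and 3919 in WT, a log2 difference of 0.18 ± 0.04 (counting SE, adjusted p = 0.000128) per the authors' deposited table. The second had 5056 and 2517 reads in KO against 3356 and 2110 in WT, at 0.25 ± 0.05 (adjusted p = 0.000121) per the authors' deposited table. The shallowest had 397 and 293 in KO against 239 and 297 in WT, at 0.59 ± 0.17 (adjusted p = 0.00621) per the authors' deposited table. The input of this gene differed less, with 7121 reads over its 3 sites in KO and 6326 in WT. A site in its copy Zfp972 also rose, with 6862 IP and 3543 input reads in KO against 5018 and 3379 in WT, at 0.28 ± 0.04 (adjusted p = 5.93e-09) per the authors' deposited table. Zfp971 had 4 tested sites and 0 calls at this age. At 28 weeks Zfp970 had 3 tested sites and 0 calls, although its 4 sites lay between 0.06 and 0.33, with 13539 IP and 6282 input reads in KO against 10762 and 5100 in WT, per the authors' deposited table.

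Sites in 10 other genes rose as well. Zfp654 had 195 IP and 87 input reads in KO against 137 and 108 in WT (0.76 ± 0.26, adjusted p = 0.0383), and Zfp62 had 387 and 186 in KO against 339 and 251 in WT (0.54 ± 0.18, adjusted p = 0.0251), per the authors' deposited table. Zfp871 had 565 and 314 in KO against 666 and 560 in WT (0.50 ± 0.13, adjusted p = 0.00239), and Zfp945 had 347 and 264 in KO against 377 and 431 in WT (0.49 ± 0.16, adjusted p = 0.0214), per the authors' deposited table. In Zfp871 and Zfp945 both IP and input reads were lower in KO, the input by more. Zfp91 had 723 and 908 in KO against 733 and 1333 in WT, at 0.41 ± 0.10 (adjusted p = 0.000701) per the authors' deposited table, and its IP reads stayed below its input reads in both groups. A site in Zfp638, a nuclear RNA-binding protein of adipocyte differentiation, had 5640 and 2800 in KO against 4939 and 2878 in WT, at 0.17 ± 0.05 (adjusted p = 0.00763) per the authors' deposited table. The other sites called higher lay in Zfp622, Zfp395, Zfp385b and Zfp367, from 0.22 to 0.25 per the authors' deposited table.

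Of the 12 sites called lower, 5 had deposited values near their count ratios and 7 had values far from them. Zfp839 had 320 IP and 255 input reads in KO against 411 and 225 in WT, at -0.76 ± 0.17 (adjusted p = 0.000237) per the authors' deposited table. Zfp292 had 362 and 261 in KO against 481 and 267 in WT, at -0.57 ± 0.16 (adjusted p = 0.00606) per the authors' deposited table. The pseudogene Zfp862-ps had 742 and 1022 in KO against 795 and 931 in WT, at -0.42 ± 0.10 (adjusted p = 0.00053) per the authors' deposited table. Zfp981 had 7085 and 6100 in KO against 8985 and 7412 in WT, at -0.28 ± 0.03 (adjusted p = 1.47e-14) per the authors' deposited table. Its IP over input was 1.16 in KO and 1.21 in WT, so most of its value came from the shift applied to every site, -0.18 at the median. A second site in Zfp622, which acts in maturation of the large ribosomal subunit, was at 1.49 in both groups and was called at -0.21 ± 0.07 (adjusted p = 0.0191) per the authors' deposited table by the same shift.

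The remaining 7 sites, in Zfp637, Zfp148, Zfp523, Zfp367, Zfp740, Zfp422 and Zfp746, had deposited values that lay over 0.5 from their count ratio after that shift. Zfp740 had 53 IP and 52 input reads in KO against 82 and 108 in WT, an IP over input of 1.02 against 0.759, yet a value of -1.46 ± 0.35 (adjusted p = 0.000786) per the authors' deposited table. Zfp148, a factor that binds GC-rich promoters, had 122 and 119 in KO against 101 and 153 in WT, and stood at -0.80 ± 0.26 (adjusted p = 0.0266) per the authors' deposited table. Zfp746, a repressor of Ppargc1a, had 32 and 27 in KO against 29 and 26 in WT, and stood at -1.67 ± 0.54 (adjusted p = 0.0233) per the authors' deposited table. Recomputed from the counts, these 7 values ran from -0.62 to 0.50, with adjusted p from 0.35 to 0.992. Such sites made up 254 of 1396 lower calls and 3 of 1420 higher calls over the whole 8-week table, so the pattern was not confined to Zfp genes. The 7 of 12 among Zfp lower calls were a larger share than that of all lower calls. Called or not, 0.843% of Zfp sites and 1.16% of all sites with a count ratio had such an offset at 8 weeks.

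**Figure D3:**
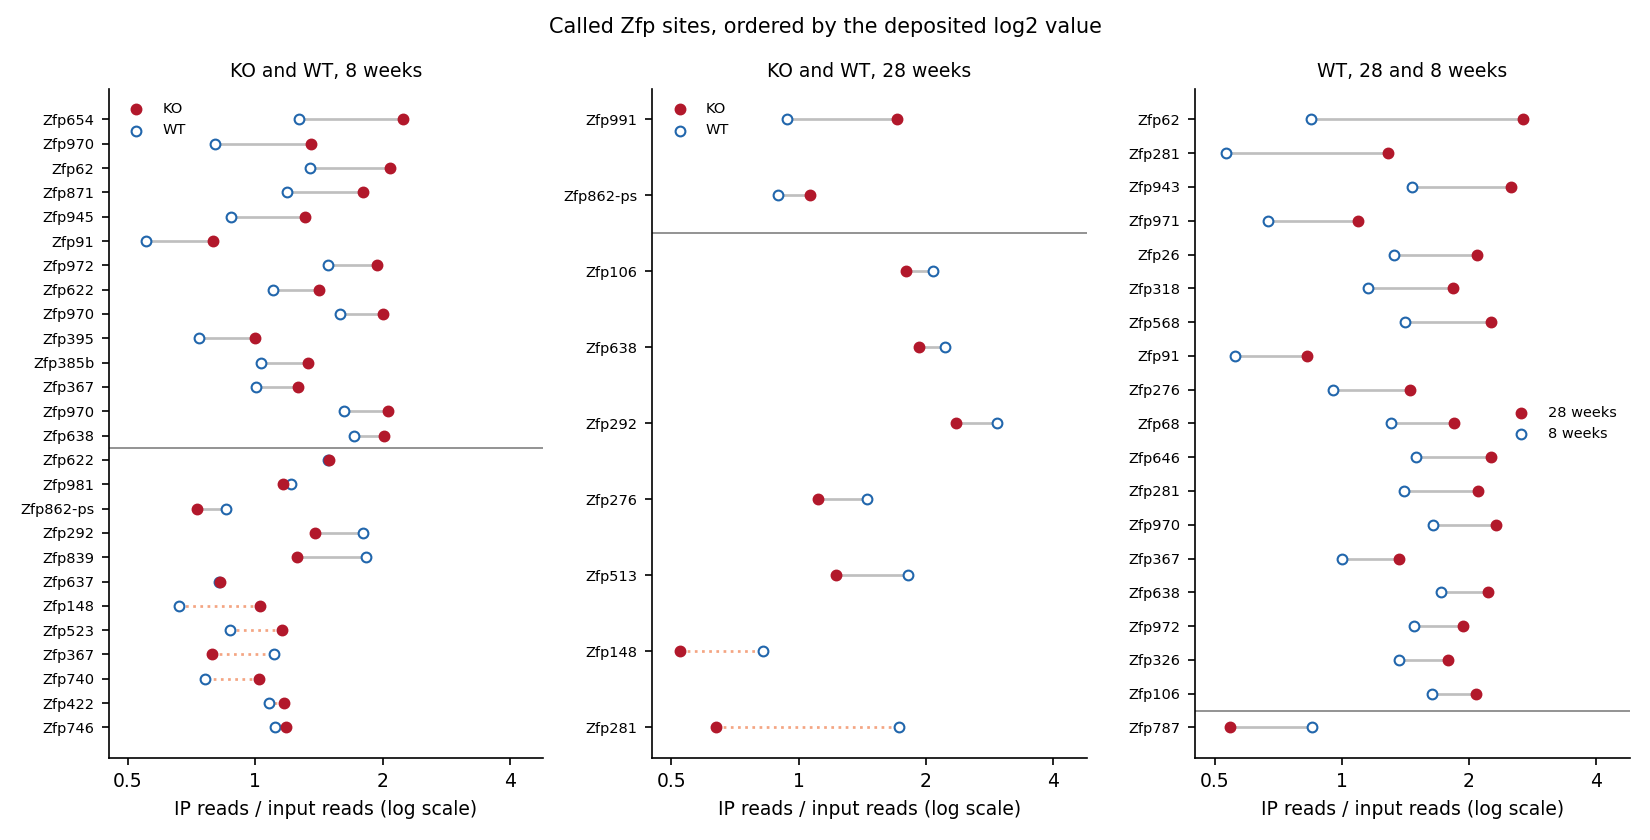
IP reads over input reads, on a log scale, at each Zfp site called per the authors' deposited tables, with KO (28 weeks in the right panel) as filled points and WT (8 weeks in the right panel) as open points, ordered by the deposited log2 value with calls higher above the grey line. Dotted lines join sites whose deposited value lay over 0.5 from the count ratio. At 8 weeks 7 sites are joined this way, and for 6 of them the KO point lies to the right of the WT point although the deposited call is lower.

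Read against the counts, 12 of the 26 calls at 8 weeks kept an adjusted p under 0.05 in the same direction when the difference was recomputed from the summed reads. With the statistic divided by its own robust spread over all sites (1.26), 3 of them remained, in Zfp970 (adjusted p = 0.00136), Zfp972 (adjusted p = 0.000761) and Zfp981 (adjusted p = 0.000353). The recomputed difference is scaled by total reads, so it holds a shift of its own. At Zfp981 it was -0.20, against -0.06 from the counts without scaling. The spread over sites is not the spread between animals, which the tables do not hold.

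**Figure D4:**
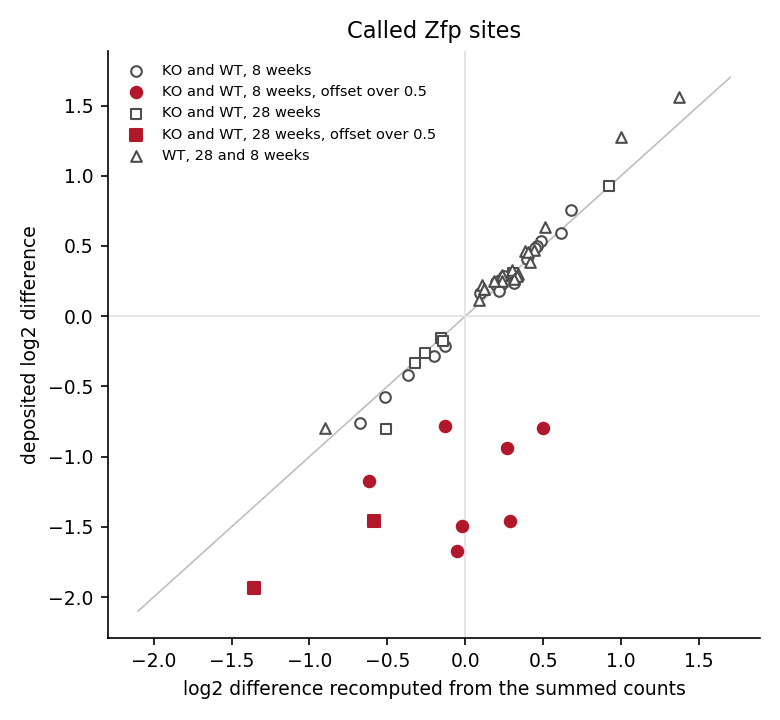
The deposited log2 difference in IP over input against the same difference recomputed from the summed counts, for the 54 Zfp sites called in 3 comparisons, with the line of equality. Filled points are the 9 sites whose deposited value lay over 0.5 from the count ratio, all called lower and all below the line.

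At 28 weeks, fewer Zfp sites were called and most were lower in KO. The authors' deposited table called 2 of 228 tested sites higher and 7 lower, that is 0.877% and 3.07%, against 2.57% higher and 6.62% lower of all 18751 sites tested. The median log2 difference was -0.06 for Zfp sites and -0.03 for all sites per the authors' deposited table. Again both shares were below the background.

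The largest rise was in Zfp991, with 692 IP and 405 input reads in KO against 202 and 215 in WT, at 0.92 ± 0.17 (adjusted p = 1.88e-06) per the authors' deposited table. This was the one Zfp site called at 28 weeks that passed with the robust spread (adjusted p = 0.000459). Its RNA differed as well but with a wide error, at 114 normalized counts in KO and 37.5 in WT (1.60 ± 1.06, adjusted p = 1) per the authors' deposited table. Zfp991 and Zfp992 share 5 further sites at this age that carry both names, with 811 IP and 444 input reads in KO against 359 and 222 in WT, none of them tested. Zfp862-ps rose, with 872 and 821 in KO against 751 and 838 in WT, at 0.30 ± 0.10 (adjusted p = 0.0318) per the authors' deposited table, whereas it was called lower at 8 weeks.

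Zfp292 fell at another site than at 8 weeks, with 2276 IP and 965 input reads in KO against 2761 and 937 in WT (-0.26 ± 0.08, adjusted p = 0.0119), and Zfp638 fell with 4944 and 2566 in KO against 5278 and 2382 in WT (-0.18 ± 0.05, adjusted p = 0.00689), per the authors' deposited table. Zfp106 fell with 6274 and 3498 in KO against 7476 and 3594 in WT (-0.15 ± 0.04, adjusted p = 0.00631), and Zfp276 with 1095 and 985 in KO against 959 and 662 in WT (-0.33 ± 0.10, adjusted p = 0.00935), per the authors' deposited table. Zfp513 had 223 and 182 in KO against 231 and 127 in WT, at -0.80 ± 0.21 (adjusted p = 0.0039) per the authors' deposited table. In Zfp148 and Zfp281, both GC-box binding factors, the deposited values of -1.46 and -1.94 rested on offsets as above, with 56 and 107 reads in KO against 93 and 113 in WT for Zfp148 and 21 and 33 in KO against 45 and 26 in WT for Zfp281. Recomputed from the counts, they were -0.59 (adjusted p = 0.47) and -1.36 (adjusted p = 0.204). Of the 9 calls at 28 weeks, 4 kept an adjusted p under 0.05 in the same direction on recomputing, those of Zfp991, Zfp106, Zfp292 and Zfp276.

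Between the ages in WT, nearly all called Zfp sites were higher at 28 weeks. The authors' deposited table called 18 of 284 tested sites higher and 1 lower, that is 6.34% and 0.352%, against 9.06% higher and 2.2% lower of all 20628 sites tested, so the tilt was one of the whole table. The median log2 difference was 0.07 for Zfp sites and 0.05 for all sites per the authors' deposited table. This comparison uses the same 8-week WT libraries as the 8-week one, and a site that was low in that group would count as higher in both. Recomputed from the summed reads, 6 of the 19 calls kept an adjusted p under 0.05 in the same direction, those of Zfp970, Zfp318, Zfp276, Zfp646, Zfp787 and the deeper site of Zfp281, and 1 did so with the robust spread.

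The site with the smallest p lay in Zfp970, with 6571 IP and 2833 input reads at 28 weeks against 6202 and 3775 at 8 weeks, at 0.25 ± 0.04 (adjusted p = 4.67e-07) per the authors' deposited table, and 0.000885 with the robust spread. Zfp971 had 471 and 432 at 28 weeks against 325 and 485 at 8 weeks (0.47 ± 0.14, adjusted p = 0.0117), and Zfp972 had 6450 and 3338 at 28 weeks against 5018 and 3379 at 8 weeks (0.20 ± 0.04, adjusted p = 0.000301), per the authors' deposited table. The highest values with at least 50 input reads were those of Zfp943, with 311 and 124 at 28 weeks against 291 and 199 at 8 weeks (0.63 ± 0.20, adjusted p = 0.0216), and Zfp971, per the authors' deposited table. Zfp26 (0.46 ± 0.15, adjusted p = 0.0256), Zfp318 (0.45 ± 0.12, adjusted p = 0.00429) and Zfp568, a KRAB protein that represses a placental transcript of Igf2 in mouse (0.39 ± 0.14, adjusted p = 0.0476), rose per the authors' deposited table. Recomputed, Zfp943 (adjusted p = 0.196), Zfp971 (adjusted p = 0.0611), Zfp972 (adjusted p = 0.164), Zfp26 (adjusted p = 0.192) and Zfp568 (adjusted p = 0.0822) did not pass. At Zfp568 the reads were 654 IP and 290 input at 28 weeks against 573 and 406 at 8 weeks. Zfp787 was the site called lower, with 73 and 134 at 28 weeks against 132 and 155 at 8 weeks, at -0.80 ± 0.27 (adjusted p = 0.0334) per the authors' deposited table.

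Over the 3 comparisons, 54 sites in 36 genes were called, and 12 genes were called in more than 1 comparison. The share of all genes called in more than 1 comparison was not counted, so whether 12 is many or few cannot be said. Zfp638 was the gene called in all 3, higher in 8-week KO, lower in 28-week KO and higher at 28 weeks in WT. Zfp970, Zfp972, Zfp91, Zfp62 and Zfp367 were called higher in 8-week KO and higher at 28 weeks in WT, which is the pair of comparisons that shares the 8-week WT group. Zfp367 had a further site called lower at 8 weeks. In Zfp62 the calls lay at different sites, with 339 IP and 251 input reads in 8-week WT at the site called in KO. The site called between the ages had 39 and 46. Zfp106, Zfp276 and Zfp281 were called lower in 28-week KO and higher at 28 weeks in WT, which share the 28-week WT group. In Zfp281 the site called lower had 45 IP and 26 input reads in 28-week WT. Its sites called higher were other entries, with 49 and 38 and with 1869 and 892. Zfp148 and Zfp292 were called lower in KO at both ages, in separate libraries, at the same site in Zfp148, which had an offset both times, and at different sites in Zfp292.

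Whether the KO difference itself changed with age was tested at 13823 sites found in all tables, 276 of them in 180 Zfp labels. It differed at 4 Zfp sites, and at 23 with an unadjusted p under 0.05, by a Wald test on counting error with Benjamini-Hochberg adjustment, or 1.45% of them, against 3.66% of all such sites. At Zfp862-ps the difference between KO and WT was 0.31 ± 0.10 at 28 weeks and -0.41 ± 0.10 at 8 weeks, a change of 0.72 ± 0.14 (adjusted p = 2.75e-05, and 0.00292 with the robust spread). From the counts without scaling it was 0.245 at 28 weeks and -0.234 at 8 weeks. The signs were thus the same, but part of the change came from the scaling by total reads. At Zfp981 it was -0.00 ± 0.03 at 28 weeks and -0.24 ± 0.03 at 8 weeks, a change of 0.24 ± 0.05 (adjusted p = 9.4e-05, and 0.00633 with the robust spread). Its reads were 7725 IP and 5106 input in KO against 9897 and 6235 in WT at 28 weeks. At 8 weeks they were 7085 and 6100 in KO against 8985 and 7412 in WT. By these counts IP over input was slightly lower in KO at both ages, so this change came mostly from the scaling by total reads. Zfp972 changed by -0.22 ± 0.06 (adjusted p = 0.00915, and 0.115 with the robust spread) and Zfp395 by -0.40 ± 0.12 (adjusted p = 0.0218, and 0.192 with the robust spread).

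Some of these sites held far more reads than the RNA count of the gene they were assigned to. Over 325 Zfp genes in the 8-week table, the sites of a gene held a median of 2.87 input reads, summed over 6 animals, per mean normalized count, and 4.69 at the 90th percentile. The site of Zfp981 held 13512 input reads, while Zfp981 had a mean of 0.891 normalized counts. The sites of Zfp972 held 7034 input reads beside a mean of 34.4 normalized counts, and the site of Zfp804b held 5461 beside 1.89. From which transcript the reads at these sites came was not tested, and Zfp981 and Zfp972 are read here by their assigned names with that limit. For Zfp970 the 7121 input reads in KO and 6326 in WT stood beside 4190 and 3504 normalized counts.

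Few Zfp genes were called in RNA in any of the 4 comparisons, and each share lay below that of all genes. At 8 weeks, 3 of 360 tested Zfp genes rose and 2 fell in KO, 1.39% in all, against 4.98% of all genes per the authors' deposited table. At 28 weeks DESeq2 called 0 of 353, with 20 at an unadjusted p under 0.05, against 0.257% of all genes per the authors' deposited table. Between the ages 3 of 343 rose and 0 fell in WT, 0.875%, against 4.24% of all genes, and 2 of 357 rose and 5 fell in KO, 1.96%, against 4.49%, per the authors' deposited table. Zfp genes had a larger error, with a median SE of 0.27 to 0.32 against 0.22 to 0.29 for all genes tested. In bulk liver, fewer cells of a type and less RNA per cell cannot be told apart. The differences given here are log2 ± SE from 3 animals per group.

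At 8 weeks Zfp618, known to bind hydroxymethylated DNA, rose to 279 normalized counts in KO, against 73.3 in WT (1.93 ± 0.50, adjusted p = 0.0049), per the authors' deposited table. Zfp330 had 1883 in KO and 688 in WT (1.45 ± 0.43, adjusted p = 0.0224), and Zfp641 had 92.3 in KO and 33.8 in WT (1.45 ± 0.46, adjusted p = 0.0375), per the authors' deposited table. Zfp574 fell, with 390 in KO and 857 in WT (-1.14 ± 0.31, adjusted p = 0.00809), and so did Zfp395, with 1345 in KO and 2745 in WT (-1.03 ± 0.30, adjusted p = 0.0192), per the authors' deposited table. At 28 weeks Zfp574 stood at 278 in KO and 542 in WT (-0.96 ± 0.33, adjusted p = 0.31) per the authors' deposited table.

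Zfp395 was the one gene called in both RNA and m6A at 8 weeks, lower in RNA and higher in IP over input. The input reads that follow its RNA are also the denominator of that ratio, so the signs are not independent of each other. Its site had 983 IP and 982 input reads in KO against 1717 and 2338 in WT, so that IP over input was 1.00 in KO and 0.734 in WT (0.24 ± 0.08, adjusted p = 0.031 per the authors' deposited table). Of 22 genes with a called site at 8 weeks 1 was called in RNA, and of 9 at 28 weeks and 18 in the ages of WT 0 were. Of all genes, 4.98%, 0.257% and 4.24% were called in RNA in these comparisons, and counts this small cannot be told from those shares. The RNA differences of the genes with a called site ran from -1.03 for Zfp395 to 1.60 for Zfp991 where an adjusted p was given per the authors' deposited table.

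Between the ages in WT, Zfp655 had 1624 normalized counts at 28 weeks and 949 at 8 weeks (0.78 ± 0.25, adjusted p = 0.0447) per the authors' deposited table. Zfp967 had 464 at 28 weeks and 156 at 8 weeks (1.57 ± 0.34, adjusted p = 0.000392) per the authors' deposited table. Its copy Zfp966, with an identical promoter, moved the other way, with 19.9 at 28 weeks and 252 at 8 weeks and a wide error (-3.66 ± 2.42, adjusted p = 0.528) per the authors' deposited table. Summed over both copies, the counts were 483 at 28 weeks and 408 at 8 weeks. The counts also went opposite ways in KO and WT at 8 weeks, where Zfp967 had 380 in KO and 165 in WT (1.20 ± 0.41, adjusted p = 0.0616) per the authors' deposited table. Zfp966 had 107 in KO and 268 in WT, with a wide error and no p-value (-1.32 ± 2.85), and the sum of both was 487 in KO and 433 in WT. Values of Zfp966 and Zfp967 are therefore uncertain one by one. Zfp992 was listed at 0 in both genotypes at 8 weeks and had a mean of 60.1 normalized counts in WT at 28 weeks (adjusted p = 3.35e-07) per the authors' deposited table. In KO it had 119 at 28 weeks (adjusted p = 0.173 against 8 weeks) per the authors' deposited table, and it shares sites with Zfp991.

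In KO, 5 Zfp genes fell with age. Markers of other cells moved in the same comparison, where all 3 endothelial markers were called, with a sum of 3331 normalized counts at 28 weeks and 5586 at 8 weeks, and 1 of 3 stellate markers, with a sum of 3227 at 28 weeks and 5230 at 8 weeks. Hepatocyte markers held 10.1% of normalized counts at 28 weeks and 14.1% at 8 weeks, and the part of these markers in the changes was not tested. Zfp618 had 54.0 normalized counts at 28 weeks and 267 at 8 weeks (-2.31 ± 0.47, adjusted p = 0.000148), and Zfp469 had 4.04 and 38.5 (-3.25 ± 0.71, adjusted p = 0.000493), per the authors' deposited table. Zfp791 had 41.7 at 28 weeks and 119 at 8 weeks (-1.52 ± 0.46, adjusted p = 0.0294), and Zfp334 had 89.5 and 183 (-1.03 ± 0.33, adjusted p = 0.0431), per the authors' deposited table. Zfp532 had 161 at 28 weeks and 302 at 8 weeks (-0.90 ± 0.26, adjusted p = 0.0158) per the authors' deposited table. Higher at 28 weeks were Zfp872, with 51.1 at 28 weeks and 11.3 at 8 weeks (2.18 ± 0.65, adjusted p = 0.0235), and Zfp354a, known as a kidney zinc finger gene, with 140 and 68.7 (1.03 ± 0.31, adjusted p = 0.0267), per the authors' deposited table.

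**Figure D5:**
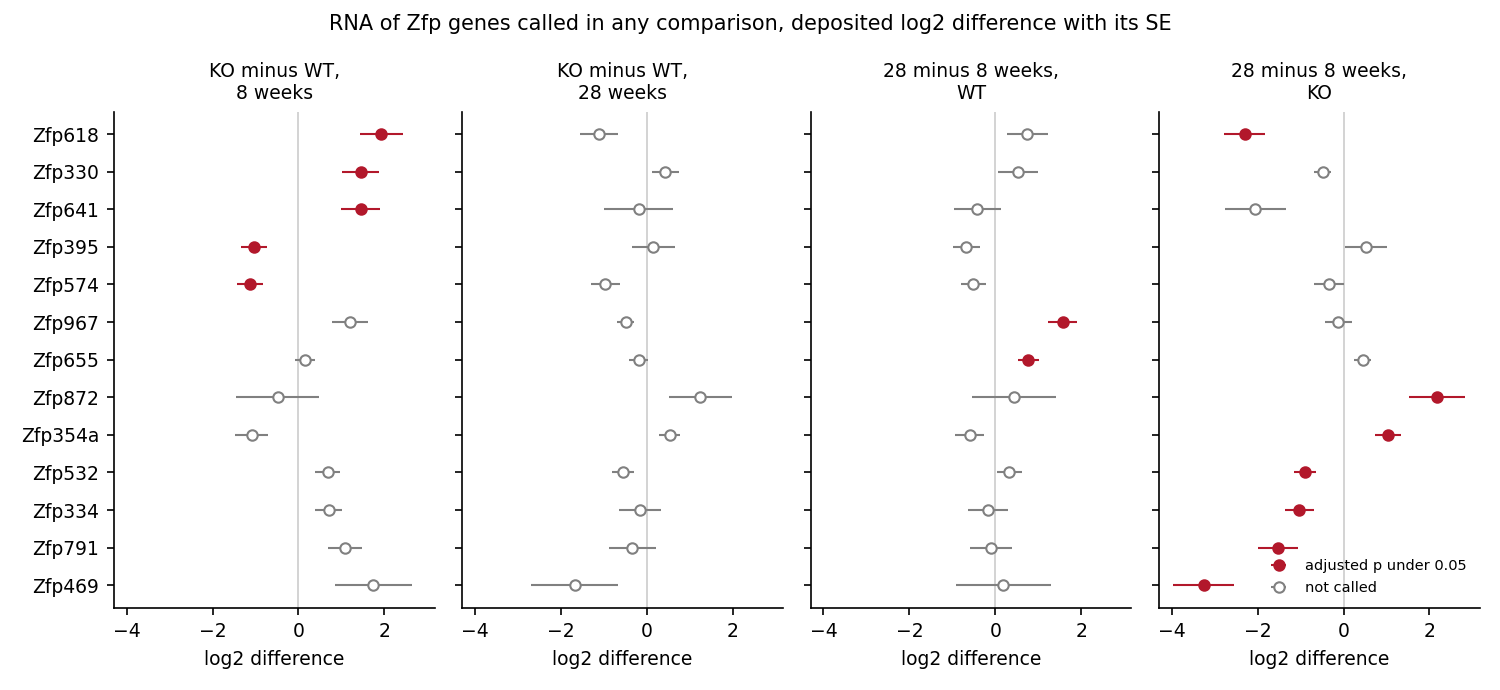
Deposited log2 differences in RNA with their SE for the 13 Zfp genes called in any comparison other than Zfp992, in KO against WT at 8 and 28 weeks and at 28 against 8 weeks in WT and KO, with called genes filled. At 28 weeks KO against WT has no filled point, and Zfp618 stands at 1.93 in 8-week KO and at -2.31 with age in KO.

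The KO difference in RNA changed with age in 3 of 350 Zfp genes tested, with 16 at an unadjusted p under 0.05, or 0.857%, against 1.58% of all genes. For Zfp618 it was -1.11 ± 0.45 at 28 weeks and 1.93 ± 0.50 at 8 weeks, a change of -3.05 ± 0.67 (Wald test with Benjamini-Hochberg adjustment over all genes, adjusted p = 0.00147). For Zfp967 it was -0.49 ± 0.20 at 28 weeks and 1.20 ± 0.41 at 8 weeks, a change of -1.69 ± 0.45 (adjusted p = 0.0202), with the limit on its copy given above. For Zfp354a it was 0.53 ± 0.25 at 28 weeks and -1.09 ± 0.38 at 8 weeks, a change of 1.63 ± 0.45 (adjusted p = 0.0273).

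The Rsl group was taken as the 17 Zfp genes with an Rsl synonym in RefSeq, a list chosen with results known and given as values only. At 8 weeks 0 of its 16 tested genes had a log2 difference above 0 in KO. Above 0 were 93 of 228 tested neighboured Zfp genes and 64 of 127 lone ones. Zfp748 of the Rsl group lay at -9.27e-05, and Zfp457, which had no adjusted p and is not in the 16, at 1.52 ± 2.31. The median of the 16 was -0.23 against -0.04 for all tested Zfp genes, and 0 were called, with 1 at an unadjusted p under 0.05, per the authors' deposited table. Zfp708 had 131 normalized counts in KO and 206 in WT (-0.66 ± 0.24, adjusted p = 0.0944) per the authors' deposited table. At 28 weeks the median of the Rsl genes was 0.09 and 10 of 15 were above 0, against 126 of 226 neighboured and 48 of 124 lone genes. With age their median was -0.19 in WT and 0.32 in KO, with 0 calls at an adjusted p under 0.05 in these 3 comparisons and 1, 0 and 1 at an unadjusted one, per the authors' deposited table. These 4 comparisons share groups, and Y-linked RNA differed between the 8-week groups as given above. IP over input at the sites of this group was high, with medians of 0.78 in KO and 0.92 in WT at 28 weeks and 0.88 in KO and 0.66 in WT at 8 weeks, over 41 to 48 sites with medians of 29.5 to 41.5 input reads.

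The cofactors of KRAB proteins, a list of 20 genes, showed few RNA calls. DESeq2 called 1 lower at 8 weeks among 19 tested, the remodeller Chd3, with 14051 normalized counts in KO and 18927 in WT (-0.43 ± 0.13, adjusted p = 0.0334), per the authors' deposited table. It called 0 of 20 at 28 weeks, 0 of 20 with age in WT and 0 of 19 in KO, with 1, 4 and 1 at an unadjusted p under 0.05. The gene of the list without a p-value at 8 weeks and with age in KO was Uhrf1, which links DNA methylation to replication. It had 427 normalized counts in KO and 22.9 in WT at 8 weeks (4.22 ± 1.43), and in KO 31.7 at 28 weeks and 407 at 8 weeks (-3.68 ± 1.39), per the authors' deposited table. Both differences share the 8-week KO group, and how its counts were spread over the animals cannot be seen. Without a p-value, neither is read as a change. Trim28 had 1534 normalized counts in KO and 1543 in WT at 28 weeks (-0.01 ± 0.12, adjusted p = 1) and 1721 in KO and 2140 in WT at 8 weeks (-0.31 ± 0.17, adjusted p = 0.332) per the authors' deposited table. Of their m6A sites, 9 of 71 tested were called lower and 1 higher in KO at 8 weeks, that is 12.7% and 1.41%, against 5.43% lower and 5.52% higher of all sites, per the authors' deposited table. At 28 weeks 5 of 44 were called lower and 0 higher, 11.4% and 0%, against 6.62% and 2.57% of all sites, and between the ages of WT 0 of 58 were lower and 2 higher, 0% and 3.45%, against 2.2% and 9.06%, per the authors' deposited table. The 8-week calls include 1 in Trim33 whose value lay -1.25 from its count ratio after the shift. A site in the deacetylase Hdac2 was called lower at both ages (-0.26 at 28 weeks and -0.20 at 8 weeks per the authors' deposited table), with an IP over input of 1.79 in KO and 2.24 in WT at 28 weeks and 1.65 in KO and 1.76 in WT at 8 weeks. Sites in Hdac1 and the heterochromatin protein gene Cbx1 were also called lower at both ages per the authors' deposited table. At 8 weeks their ratios were nearly equal. They were 1.36 in KO and 1.39 in WT for Hdac1, and 1.44 in both groups for Cbx1. Daxx (1.27 in KO and 1.31 in WT) and the Chd3 site called lower (1.53 and 1.59) also differed little. The ratio was higher in KO in Dnmt1 (1.69 and 1.63). It was also higher in Chd4, with 7617 IP and 4980 input reads in KO against 7650 and 5174 in WT. These 8-week calls came mostly from the shift applied to every site, unlike that in Trim24 (1.18 in KO and 1.51 in WT). How many of all lower calls rest on that shift was not counted. The excess of lower calls at 8 weeks is therefore not read as lower m6A.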

How the data were processed

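Input and m6A IP libraries of 12 mouse livers were stranded and carried unique molecular identifiers, per the labels' protocols. The submitters' processing notes name HISAT2, StringTie and DESeq with no version. The site caller and genome build are not stated in what was used here. The RNA tables hold, per the file headers, a DESeq2 signal (mean of normalized counts), a log2 ratio with its SE, a Wald statistic (score) and p-values with an adjusted p, all as the authors deposited them. The site tables hold counts that the authors deposited as sums over 3 animals per group, and the authors' log2 difference with its p-value. The 4 count columns of the KO age site table match no group and are not used here, nor are site coordinates, so no site sequence is shown.

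The numerator is not stated. The deposited RNA ratio and the ratio of input reads had opposite signs, with a Pearson r across genes, which are not independent replicates, of -0.90, -0.81 and -0.91, so RNA signs were turned. Site signs were kept. Group means follow from a table's mean and ratio. The test was the authors' adjusted p under 0.05, over the whole table. IP over input used 0.5 added to each count and at least 10 input reads. Recomputed differences used the summed counts scaled by total reads, a Wald test on counting error and Benjamini-Hochberg adjustment. The same test served for the change with age, at sites joined by gene and equal WT sums. Nothing in the labels says how animals were housed or paired. Simulated counts with known changes were used to check the scripts. The tools were numpy 2.4.6, scipy 1.17.1, pandas 2.3.3 and matplotlib 3.10.9 under Python 3.11.15.

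The members and lists were chosen with earlier results of these data known. Named were the 5 highest and 5 lowest called sites per comparison with at least 50 input reads in both groups, genes called in more than 1 comparison, every Zfp gene called in RNA, and the genes or sites with most sites, most counts and extreme IP over input. Zfp804b, Zfp981, Zfp966, Zfp991, Zfp708 and the cofactors named with values were also chosen after their values were seen where this rule did not take them.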

Additional observations from a re-analysis of the deposited data

Results flagged for a closer look

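In 7 cases the difference between KO and WT itself changed with age, by a test of that change. In RNA the change, 28 weeks minus 8 weeks, was -3.05 for Zfp618, -1.69 for Zfp967 and 1.63 for Zfp354a. In m6A it was 0.72 for Zfp862-ps, 0.24 for Zfp981, -0.22 for Zfp972 and -0.40 for Zfp395. The 2 m6A changes that passed with the robust spread were those of Zfp862-ps and Zfp981. The change at Zfp981 came mostly from the scaling by total reads, and that at Zfp862-ps in part. Beside each stands the near absence of Y-linked RNA in 8-week WT, whose part was not tested. Zfp967 and Zfp966 have identical promoters and counts that are uncertain one by one, and Zfp981 and Zfp972 have RNA counts far below the reads at their sites.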

How the results depend on the processing

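Of 70 values under alternative settings for 13 results, 44 stayed within 1.5 times the count given or within the 95% order-statistic interval of the median over sites. The other 26 moved, and reversals of direction were not looked for. At an adjusted p under 0.01, called Zfp sites numbered 13 at 8 weeks and 4 between the ages of WT, and called genes in RNA 2 at 8 weeks, 2 with age in KO and 1 for the change with age. Counting 1 site per gene, the deepest, left 12 at 8 weeks. The test from summed counts called 10 between the ages of WT. With the robust spread, 3, 2 and 1 sites were called at 8 weeks, 28 weeks and between the ages of WT, and 2 for the change with age. Adding Zfp36 and its paralogs gave 8 genes in RNA at 8 weeks. The median log2 IP over input over every site was 0.59 in KO and 0.73 in WT at 28 weeks, and 0.63 in KO and 0.42 in WT at 8 weeks. With at least 50 input reads it was 0.43 in KO and 0.51 in WT at 28 weeks, and 0.42 in KO and 0.21 in WT at 8 weeks. Scaled by total reads it was 0.39 in KO and 0.45 in WT at 28 weeks, and 0.46 in KO and 0.38 in WT at 8 weeks. With 1 value per gene it was 0.60 in KO and 0.72 in WT at 28 weeks and 0.42 in WT at 8 weeks. Leaving out sites with an offset, chosen after seeing the data, left 19, 7 and 19 called sites.

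No paired analysis was possible because the tables hold no values per library, so that leaving out an animal was not done either. Site p-values cover counting error only. Depth limits the calls, since 25.5%, 14.9% and 18.6% of Zfp sites had an adjusted p at 8 weeks, at 28 weeks and between the ages of WT.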
